A study of Mus musculus with 10 samples.

Results

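The proximal T cell receptor signaling genes were followed in tumor-infiltrating CD8+ T cells transduced with MIT-BATF or MIT-Empty. The 41 genes were taken by mouse symbol from the 34932 genes of the count tables, and comprise 25 positive regulators of the signal, 14 negative regulators and 2 SH2 adaptors, Sh2d1a and Sh2d2a, that were counted with neither side. All 41 passed edgeR's expression filter (filterByExpr), so that none is missing from the comparison.

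When the T cell receptor binds its antigen, the kinase Lck, brought in by the CD8 coreceptor, phosphorylates the CD3 and zeta chains, Zap70 docks on them, and the adaptors Lat and Lcp2 (SLP-76) are assembled into a platform with Plcg1, Vav1 and Tec family kinases. From this platform calcium and diacylglycerol signals reach the NFAT factors, the Ras pathway and, through PKC-theta and the Bcl10-Malt1 complex, NF-kB. Phosphatases, the kinase Csk, Cbl ubiquitin ligases, diacylglycerol kinases and the receptors CD5 and CD6 restrain the same steps, and many of them are themselves induced or engaged in T cells that meet antigen for long periods.

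The cells were Pmel CD8+ T cells, which carry a transgenic receptor against the gp100 antigen of B16 melanoma, from Thy1.2/Thy1.2 donors. Splenocytes of both groups were activated for 24 h with IL-2 (10 IU/mL) and the gp100 peptide, transduced with the MSCV-IRES-Thy1.1 (MIT) retrovirus, either with the mouse BATF open reading frame (MIT-BATF) or without it (MIT-Empty), and later kept in IL-2 (50 IU/mL) with IL-7 and IL-15 (both 10 ng/mL). Each B16-F10 tumor-bearing Ly5.1 (CD45.1) recipient received 5000000 Thy1.1+ cells, and on day 7 after transfer 2000 live Thy1.1+ cells per mouse were sorted for SMART-Seq2 libraries, 5 per group. Mice of the study were 8 to 12 weeks old. The vector drives BATF from a retroviral promoter, the hosts keep their own immune cells, and every cell carries the same transgenic receptor.

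Gene counts per library ran from 10702908 to 34102346 in MIT-BATF and from 6534648 to 21355922 in MIT-Empty, and the 41 genes took 0.371% to 0.67% and 0.427% to 0.649% of them. Batf itself was at 12.4 to 26.5 CPM (counts relative to the TMM-scaled library total) under the label MIT-BATF and 13.5 to 50.8 CPM under MIT-Empty (log2 fold change -0.41, edgeR adjusted p = 0.522). Since no source used here says whether the vector's transcript was counted as Batf, each direction below is that of the libraries so labelled. Gene by gene, the counts of replicates 4 and 5 lay within those of replicates 2 and 3 in each group, so the libraries are not all separate samples. For that reason the genes past the test and the counts of calls are also given with shared reads counted once, after taking the contained library off the containing one, and the plot of log2 fold changes shows both sets of counts for all 41 genes. Replicate 1 of MIT-BATF had a mitochondrial share of counts of 33.2%, where the other MIT-BATF libraries had 11.5% to 15.1% and MIT-Empty 15.5% to 23.1%, and it was the highest or the lowest of the 10 libraries for 16 of the 41 genes (39.0%, where the share over all genes tested was 43.1%). T cell markers summed to 13920 to 19410 CPM in MIT-BATF and 14260 to 23440 CPM in MIT-Empty. Melanoma markers summed to 14.4 to 29.5 CPM in MIT-BATF and 39.7 to 1738 CPM in MIT-Empty, and macrophage and monocyte markers to 25.0 to 82.6 CPM and 43.6 to 290.1 CPM. Sums of dendritic cell markers were 24.9 to 37.0 CPM in MIT-BATF and 38.1 to 119 CPM in MIT-Empty, those of fibroblasts and endothelium 6.85 to 13.8 CPM and 14.98 to 92.1 CPM, and those of B cells, NK cells and CD4 T cells at most 7.55, 20.5 and 7.33 CPM in any library. The most abundant of the melanoma and of the macrophage and monocyte genes, Tyrp1 and Lyz2, ran over the 10 libraries from 1.08 to 753 CPM and from 8.95 to 134 CPM. Thy1, whose Thy1.1 form marked the sorted cells, averaged 276 CPM over the MIT-BATF libraries against 263 CPM over the others (log2 fold change 0.07, SE 0.20, and -0.09, SE 0.24, with shared reads counted once). Among the markers tested, 6 of 6 melanoma and 4 of 11 macrophage and monocyte genes were lower in MIT-BATF, or 2 of 5 and 1 of 10 with shared reads counted once. Of 4 dendritic cell markers 1 was higher and 1 lower, 1 of 2 B cell markers was higher, and 1 of 2 fibroblast and endothelial markers was lower. With shared reads counted once the 2 lower calls stayed and the 2 higher calls were lost.

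The level of the 41 genes was compared per length, as the authors' TPM values summed over each gene's transcripts. Genes of CD3 chains and of the coreceptor's beta chain had the highest levels of the 41. Cd3g, Cd3d, Cd8b1 and Cd3e had medians over the 10 libraries of 634.0, 486.5, 183 and 183 TPM. Ptpn22, a phosphatase that removes activating phosphates from Lck and Zap70, had a summed level of 135 TPM, but its coding transcript Ptpn22-201 held 37.8% of its counts on average and shorter retained-intron transcripts enter the sum, so its place in this order is uncertain. Of the kinases, Lck stood at 58.1 TPM, Zap70 at 27.8 TPM, Fyn at 9.54 TPM and Txk at 3.41 TPM. Cd247, which encodes the zeta chain, was at 17.3 TPM, far under the other receptor chains. Its ratio to Cd3e in TPM lay between 0.109 and 0.124 in MIT-BATF and between 0.06 and 0.128 in MIT-Empty, so the groups overlapped. Of the 31-base stretches of Cd247, 54.4% are shared with Pou2f1 on the opposite strand, so their counts cannot be fully told apart. Pou2f1 held a mean of 91.3 counts over the libraries and Cd247 902. The lowest levels were those of Pag1 (1.03 TPM), Ubash3b (0.683 TPM), Nfatc2 (0.666 TPM) and Sos1 (0.591 TPM). Neighbours in this order mostly had overlapping ranges, as the plot of TPM levels shows.

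**Figure D1:**
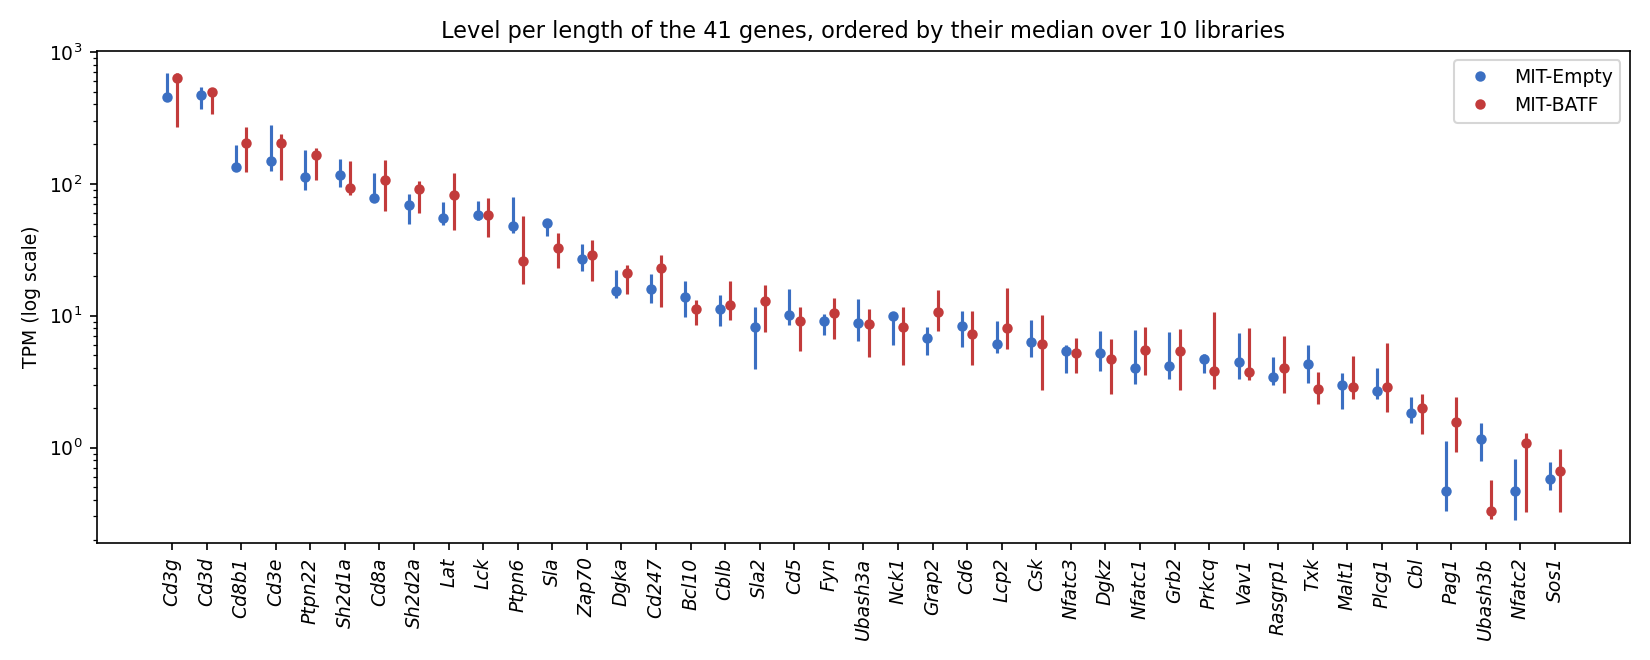
Level of each of the 41 genes in TPM on a logarithmic axis, with genes ordered by their median over the 10 libraries; points are group medians and bars run from the lowest to the highest library of MIT-Empty (blue) and MIT-BATF (red). Levels run from Cd3g, with a median of 634.0 TPM, to Sos1, with 0.591 TPM, and Ubash3b is the gene near the lower end whose group ranges lie apart.

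Between MIT-BATF and MIT-Empty, 5 of the 41 genes passed the test at an adjusted p under 0.05. The adaptor Grap2 and the Csk-binding protein gene Pag1 were higher in MIT-BATF, whereas the phosphatase gene Ubash3b, the adaptor Sla and the kinase Txk were lower. Over all 11781 genes tested, 4.58% passed, with 2.16% higher and 2.43% lower. Grap2, Pag1 and Ubash3b also passed with shared reads counted once, where 1.26% of 11131 genes did. These 5 were also the only members whose library values did not overlap between groups, 2 higher and 3 lower, against 6.45% of all genes tested (3.28% higher and 3.17% lower), and the same 5 did not overlap with shared reads counted once (3.19% of all genes, 1.62% higher and 1.57% lower). DESeq2 called the same 5 on the deposited counts, where it called 6.41% of the genes it tested.

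By side, 1 of the 25 positive regulators rose (Grap2), 1 fell (Txk) and 23 did not pass. Of the 14 negative regulators 1 rose (Pag1), 2 fell (Ubash3b and Sla) and 11 did not pass, and neither Sh2d1a nor Sh2d2a passed. The median log2 fold change was 0.06 over the positive regulators, of which 16 lay above 0 and 9 below, and -0.16 over the negative regulators, of which 5 lay above 0 and 9 below, where the median of all genes tested was 0.0065. Counting shared reads once gave medians of 0.075, -0.15 and -0.0009. The members that passed went in both directions on each side.

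Pag1 encodes PAG, a transmembrane adaptor that holds Csk at the membrane, where Csk keeps Lck and Fyn inactive. The gene lies on chromosome 3 of GRCm38 (mm10) from 9687479 to 9833679, on the minus strand. Replicates 1 to 5 of MIT-BATF held 15.6, 11.2, 12.3, 12.3 and 10.2 CPM of Pag1, and those of MIT-Empty 5.02, 4.16, 5.20, 5.33 and 3.82 CPM. No MIT-Empty library reached the lowest of MIT-BATF, and MIT-BATF replicate 1 was the highest. Means were 12.3 ± 2.04 CPM and 4.71 ± 0.676 CPM (SD, n = 5 each), a 2.62-fold difference (95% interval 1.95 to 3.53). The log2 fold change was 1.39 (SE 0.20, adjusted p = 0.00123 by edgeR's quasi-likelihood fit and Benjamini-Hochberg adjustment), and counting shared reads once gave 1.36 (SE 0.25, adjusted p = 0.0148). Pag1 passed in 10 of 10 fits that each left out 1 library, on either set of counts, and without MIT-BATF replicate 1 its log2 fold change was 1.30. On the deposited counts, such a fit can keep reads of the library left out, through its nested partner. Without the containing libraries, which leaves 3 libraries a group, Pag1 was at 1.44 and did not pass (edgeR adjusted p = 0.152). The gene rests on 33 to 530 counts per library. In the TPM values the group ranges of Pag1 met, at 0.927 to 2.43 in MIT-BATF and 0.331 to 1.13 in MIT-Empty.

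Ubash3b encodes Sts-1, a phosphatase that acts on Zap70 and related kinases after receptor engagement, and lies on chromosome 9 from 41011098 to 41161697, on the minus strand. Replicates 1 to 5 held 4.74, 5.43, 4.52, 3.72 and 3.88 CPM of Ubash3b in MIT-BATF and 9.43, 13.4, 13.6, 10.2 and 12.2 CPM in MIT-Empty. The groups did not overlap, and the lowest MIT-Empty value was replicate 1. The difference was 0.379-fold (95% interval 0.281 to 0.512), a log2 fold change of -1.40 (SE 0.20, adjusted p = 0.00127 by edgeR), and -1.36 (SE 0.26, adjusted p = 0.0153) with shared reads counted once. Ubash3b passed in 10 of 10 fits without 1 library on the deposited counts and in 9 of 10 when shared reads were counted once, the exception being the fit without MIT-Empty replicate 2 (adjusted p = 0.0509). Ubash3b was at -1.28 without the contained and -1.36 without the containing libraries, and passed in neither fit (edgeR adjusted p = 0.0604 and 0.191). It rests on 38 to 331 counts per library.

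Its relative Ubash3a, which encodes the related Sts-2, was more abundant, with a median of 8.75 TPM against 0.683 TPM, and did not pass the test. Ubash3a was at 17.3 to 24.8 CPM in MIT-BATF and 19.2 to 34.1 CPM in MIT-Empty (log2 fold change -0.22, 95% interval -0.58 to 0.14, adjusted p = 0.55 by edgeR). The groups overlapped, and with shared reads counted once the log2 fold change was -0.12.

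Grap2 encodes Gads, the small adaptor that links SLP-76 to phosphorylated LAT. It lies on chromosome 15 from 80572594 to 80652854, on the plus strand. Replicates 1 to 5 held 58.1, 67.6, 79.6, 52.6 and 61.7 CPM of Grap2 in MIT-BATF and 28.9, 32.9, 43.9, 32.3 and 41.7 CPM in MIT-Empty. The groups did not overlap, replicate 3 being the highest of each. The log2 fold change was 0.83 (SE 0.16, a 1.78-fold difference, adjusted p = 0.00865 by edgeR) and 0.91 (SE 0.20, adjusted p = 0.0361) with shared reads counted once. Grap2 passed without any single library on the deposited counts, but in only 4 of 10 such fits when shared reads were counted once, and its adjusted p reached 0.116 without MIT-Empty replicate 2. Without the contained and without the containing libraries Grap2 was at 0.99 and 0.74, and passed in neither fit (edgeR adjusted p = 0.063 and 0.321).

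Sla encodes SLAP, an adaptor that brings the ubiquitin ligase c-Cbl to the receptor complex and so lowers zeta chain levels. It lies on chromosome 15 from 66780819 to 66831829, on the minus strand. Replicates 1 to 5 held 199, 154, 162, 157 and 137 CPM of Sla in MIT-BATF and 266, 273, 231, 222 and 221 CPM in MIT-Empty. Although all MIT-BATF libraries were below all MIT-Empty libraries, the step between the nearest of them, 199 and 221 CPM, was small. The log2 fold change was -0.59 (SE 0.14, adjusted p = 0.0269 by edgeR), and with shared reads counted once -0.60 (SE 0.18, adjusted p = 0.165), where edgeR's call was lost and DESeq2 kept it (adjusted p = 0.0324). Leaving out 1 library kept the call in 4 of 10 fits, with an adjusted p of up to 0.0882, and without MIT-BATF replicate 1 the log2 fold change was -0.66 (adjusted p = 0.00759).

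Txk encodes Rlk, a Tec family kinase that acts on Plcg1, and lies on chromosome 5 from 72695978 to 72752777, on the minus strand. Replicates 1 to 5 held 11.5, 13.5, 12.9, 13.4 and 11.2 CPM of Txk in MIT-BATF and 14.6, 16.9, 24.4, 21.7 and 25.7 CPM in MIT-Empty. MIT-BATF values were tight, whereas MIT-Empty values spread from just above them to far above them. The log2 fold change was -0.73 (SE 0.18, adjusted p = 0.0314 by edgeR), and with shared reads counted once -0.65 (SE 0.21, adjusted p = 0.192), where the call was lost, by DESeq2 as well (adjusted p = 0.133). The call held in 3 of 10 fits without 1 library, with an adjusted p of up to 0.0916. Txk was lower in 5 of 5 MIT-BATF libraries than in any MIT-Empty library.

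**Figure D2:**
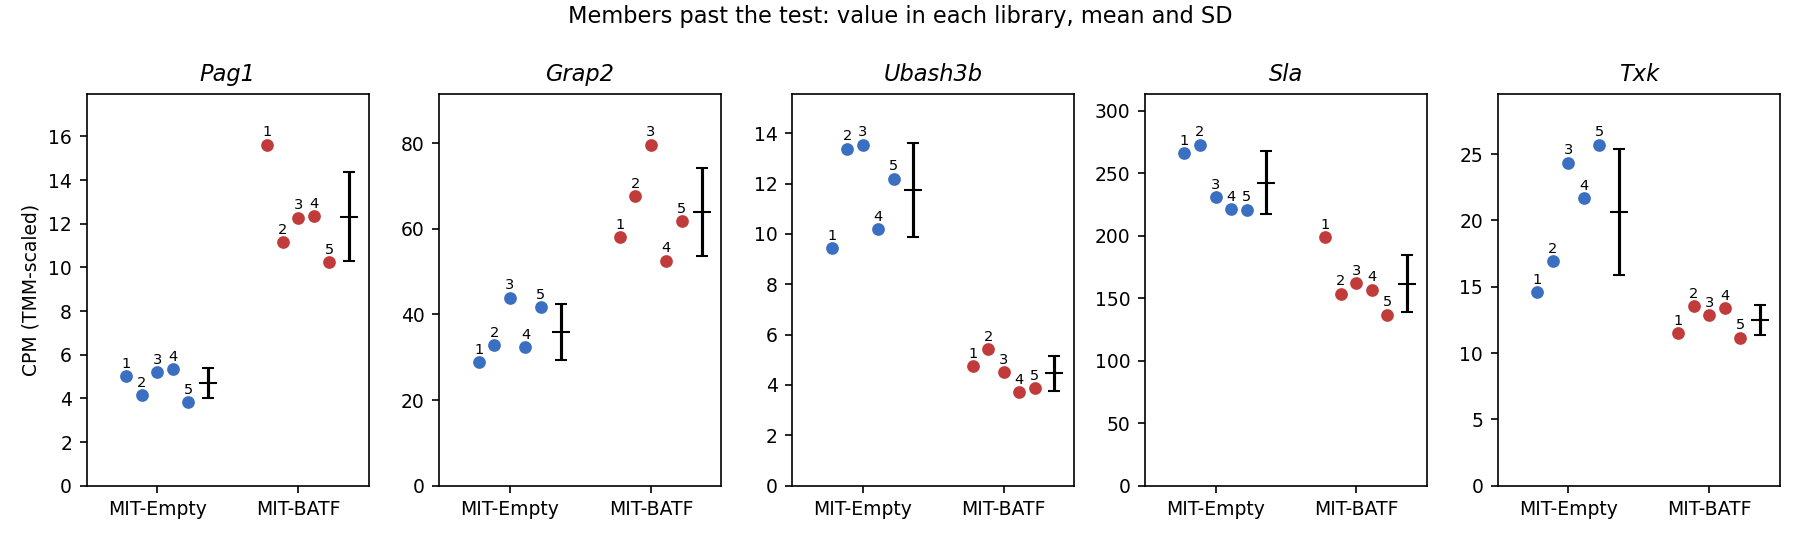
CPM after TMM scaling of the 5 genes past the test in each library (points, numbered by replicate) of MIT-Empty (blue) and MIT-BATF (red), with the mean and SD of 5 libraries as a bar beside them; each axis starts at 0. Pag1 and Grap2 sit higher in all MIT-BATF libraries, and Ubash3b, Sla and Txk lower, with the nearest libraries of Sla at 199 and 221 CPM.

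Sums of melanoma, of dendritic cell and of fibroblast and endothelial markers were lower in every MIT-BATF library than in any MIT-Empty library. Those of macrophages and monocytes reached higher in MIT-Empty but overlapped, as did those of B cells, NK cells and CD4 T cells. The dendritic cell sum joins genes of both directions, as 1 of the 4 markers tested was higher in MIT-BATF and 1 lower on the deposited counts. H2-Aa, the most abundant gene of that list, ran from 9.18 to 83.9 CPM over the 10 libraries. Ubash3b, Sla and other members are also expressed in myeloid cells. The part of other cell types in these differences was not tested. Because the samples are bulk, fewer cells that express a gene and less RNA per cell cannot be told apart.

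For 3 of the genes past the test, the sequence before the start of transcription is shown, since BATF acts through composite sites in which AP-1 factors bind beside others. RefSeq promoter windows (GRCm38.p6, 250 bases before to 50 after a start) were found for 33 of the 41 genes, 48 windows in all. The only window of Grap2 (chr15:80623233-80623532, plus strand) and the outer windows of Ubash3b (chr9:41158013-41158312, minus strand) and of Txk (chr5:72752728-72753027, minus strand) are printed from 5′ to 3′ in lower case, with the NFAT core GGAAA, or its reverse complement TTTCC, in capitals. Those of Grap2 and Ubash3b belong to starts inside the gene bounds given above, so they are not the outermost starts of these genes.
Grap2: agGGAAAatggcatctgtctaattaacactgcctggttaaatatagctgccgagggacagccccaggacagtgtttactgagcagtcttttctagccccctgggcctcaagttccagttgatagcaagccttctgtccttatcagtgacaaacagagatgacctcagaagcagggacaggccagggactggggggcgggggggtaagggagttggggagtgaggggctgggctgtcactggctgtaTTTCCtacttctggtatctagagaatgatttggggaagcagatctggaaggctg
Ubash3b: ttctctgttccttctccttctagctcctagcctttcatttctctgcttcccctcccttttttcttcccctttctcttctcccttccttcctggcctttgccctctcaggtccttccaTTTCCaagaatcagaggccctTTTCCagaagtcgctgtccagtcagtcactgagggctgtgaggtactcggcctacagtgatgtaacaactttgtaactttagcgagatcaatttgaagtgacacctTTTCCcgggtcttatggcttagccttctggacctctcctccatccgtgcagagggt
Txk: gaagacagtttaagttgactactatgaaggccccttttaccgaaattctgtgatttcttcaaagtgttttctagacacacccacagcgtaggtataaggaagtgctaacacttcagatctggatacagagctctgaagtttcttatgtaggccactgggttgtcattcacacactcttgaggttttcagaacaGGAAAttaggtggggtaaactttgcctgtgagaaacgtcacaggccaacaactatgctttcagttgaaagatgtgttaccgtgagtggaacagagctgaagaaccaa
The AP-1 motif TGANTCA, searched on both strands, was in 0 of the 48 windows, where 7.81% of the 32851 RefSeq windows of mouse genes hold it. GGAAA was in 34 of the 48 (70.8%) against 61.3% of all windows, and the ETS core CCGGAA in 4 (8.33%) against 14.9%. Several windows belong to the same gene, and these matches describe the letters of the windows only. The paper names IRF4 as a factor that binds together with BATF. No IRF4 motif or composite site was searched, so the capitals do not mark BATF sites.

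The receptor chains and the coreceptor did not pass the test. Cd3d, Cd3e and Cd3g, the CD3 delta, epsilon and gamma chains, had log2 fold changes of -0.12 (SE 0.19), -0.03 (SE 0.21) and 0.11 (SE 0.23), and Cd247 had 0.34 (SE 0.16, adjusted p = 0.291 by edgeR). Cd8a and Cd8b1, the coreceptor's alpha and beta chains, had 0.06 (SE 0.17) and 0.30 (SE 0.17). The 95% intervals of these 6 genes lay within 0.697-fold and 1.61-fold, so that a change of 2-fold lay outside each of them, as it did with shared reads counted once, where none of the 6 passed either. Cd3d ran from 733 CPM in MIT-BATF replicate 1 to 1261 CPM in MIT-BATF replicate 5, and from 939 to 1431 CPM in MIT-Empty. The spread within each group was wider than the difference between groups, and replicate 5 was the highest of each. Cd3g ran from 544 to 1255 CPM in MIT-BATF and from 732 to 1218 CPM in MIT-Empty. Beta and alpha chains of CD8 stood at a ratio in TPM of 1.77 to 2.30 (median 1.89) in MIT-BATF and 1.59 to 1.79 (median 1.72) in MIT-Empty, ranges that met at their ends. On average the retained-intron transcript Cd8a-203 held 54.4% of Cd8a counts, so this ratio does not compare coding transcripts alone.

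**Figure D3:**
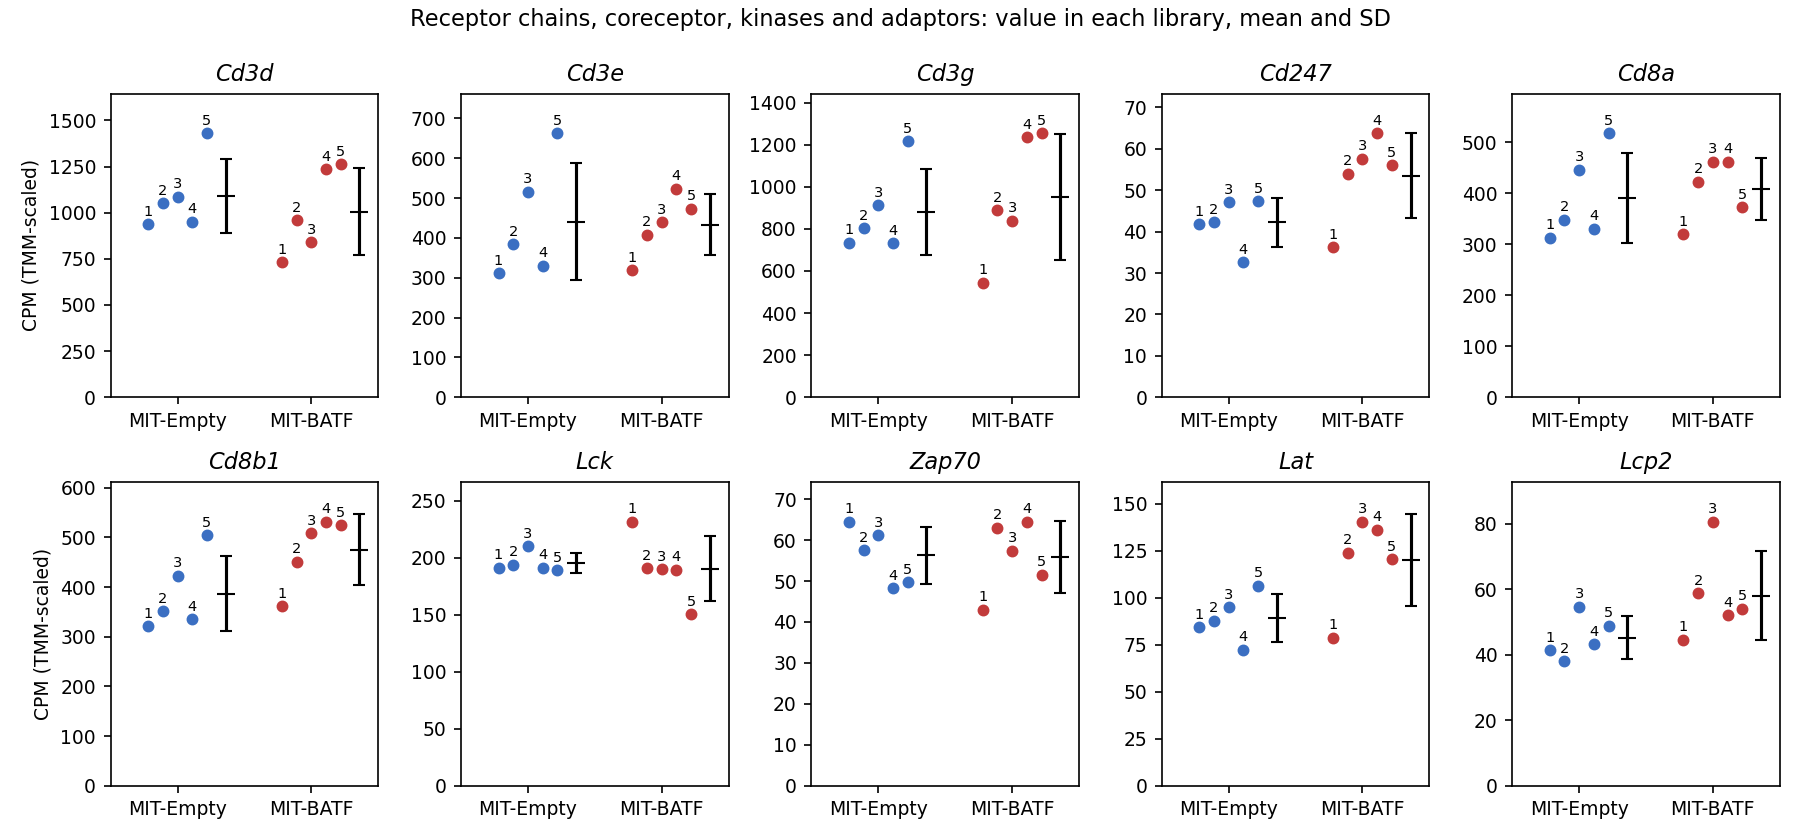
CPM after TMM scaling of 10 genes of the receptor, coreceptor, kinases and adaptors in each library (points, numbered by replicate) of MIT-Empty (blue) and MIT-BATF (red), with mean and SD of 5 libraries as a bar beside them; each axis starts at 0. The groups overlap for all 10 genes, and MIT-BATF replicate 1 (Cd3d at 733 CPM, Cd3g at 544 CPM) is the lowest of its group for 9 of them but the highest for Lck, at 232 CPM.

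Among the kinases, Lck, which starts the cascade, had a log2 fold change of -0.04 (95% interval -0.32 to 0.25), Zap70 -0.01 (-0.33 to 0.31) and Fyn, the other Src family kinase, 0.12 (-0.22 to 0.45). Lck was at 151 to 232 CPM in MIT-BATF and at 189 to 210.3 CPM in MIT-Empty. Its MIT-Empty libraries lay close together inside the wider MIT-BATF range.

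Of the adaptors around LAT, 4 of 5 had a fold change above 0, and Grap2 was the member that passed. Lat, the scaffold itself, held 78.7, 124, 141, 136 and 121 CPM in replicates 1 to 5 of MIT-BATF and 84.5, 87.8, 95.1, 72.4 and 107 CPM in those of MIT-Empty. MIT-BATF replicate 1 lay among the MIT-Empty libraries, while the other MIT-BATF libraries were above all of them. Lat had a log2 fold change of 0.43 (SE 0.17, adjusted p = 0.187 by edgeR), and without MIT-BATF replicate 1, the library with the high mitochondrial share, it was 0.55 (SE 0.13) with an adjusted p of 0.0269. Counting shared reads once, Lat was at 0.45 (adjusted p = 0.421) and passed neither with nor without that library. Lcp2, which encodes SLP-76, the partner of Gads, was at 0.36 on the log2 scale (SE 0.17, adjusted p = 0.276). The adaptors Grb2 (0.11) and Nck1 (-0.12), which connect receptors to Ras and to actin, did not pass.

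No enzyme or exchange factor passed. Plcg1, the phospholipase that makes the calcium and diacylglycerol signals, was at 18.8 to 26.8 CPM in MIT-BATF and 18.3 to 24.5 CPM in MIT-Empty (log2 fold change 0.04, 95% interval -0.27 to 0.36). The exchange factors Vav1, Sos1 and Rasgrp1 had log2 fold changes of -0.04, 0.07 and -0.07. By edgeR's quasi-likelihood test 18.1% of all genes tested had an unadjusted p under 0.05, and 0 of these 4 genes did. DESeq2 adjusted p-values were between 0.912 and 0.977 for the same genes. Prkcq (PKC-theta) had a log2 fold change of 0.06, Malt1 0.16 and Bcl10 -0.39 (SE 0.15, adjusted p = 0.182, and -0.43 with shared reads counted once).

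The NFAT factors lay above 0 without passing. Nfatc2, which encodes NFAT1, held 11.9, 7.87, 8.65, 8.81 and 3.56 CPM in MIT-BATF replicates 1 to 5 and 2.69, 3.09, 6.02, 4.69 and 5.23 CPM in those of MIT-Empty. Replicate 5 of MIT-BATF lay among the MIT-Empty libraries, and the other replicates of MIT-BATF were above all of them. The log2 fold change was 0.90 (SE 0.32, adjusted p = 0.14 by edgeR), which is larger in size than that of Grap2 but with a wider error, and without MIT-BATF replicate 5 it was 1.09 (adjusted p = 0.0387). With shared reads counted once Nfatc2 was at 1.01 (adjusted p = 0.291) and passed in 0 of 10 edgeR fits without 1 library, with an adjusted p of at least 0.107. Nfatc2 rests on 22 to 373 counts per library. On average 69.9% of its counts were assigned to a noncoding processed transcript, so these values are not those of the coding transcripts alone. Nfatc1, itself an NFAT target, was at 0.18 (SE 0.20) and Nfatc3 at 0.05 (SE 0.15).

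**Figure D4:**
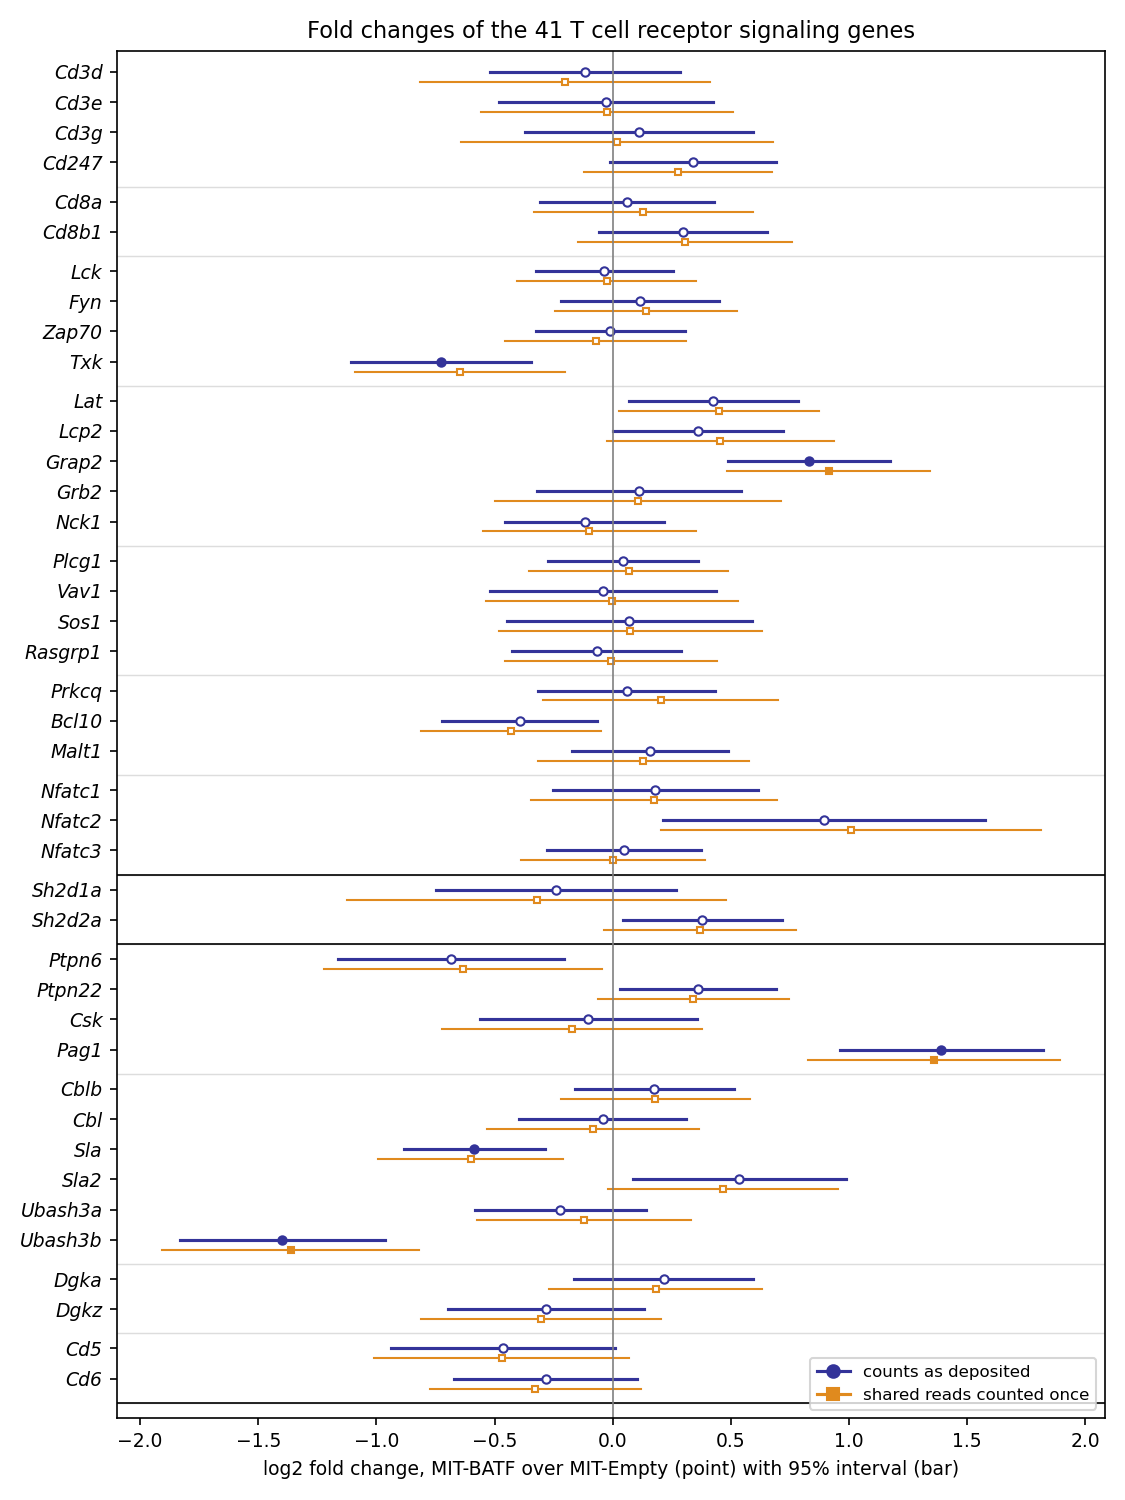
Log2 fold change of MIT-BATF over MIT-Empty (points) with its 95% interval (bars) for the 41 genes, from the counts as deposited (blue circles) and with shared reads counted once (orange squares); filled symbols passed at an adjusted p under 0.05, thin lines part the roles, and black lines part positive regulators (top), the SH2 adaptors and negative regulators (bottom). Pag1 (1.39) and Ubash3b (-1.40) lie farthest from 0, with Grap2 at 0.83, and the intervals of most other genes span 0.

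Within the Csk module, Pag1 was the member that passed. Csk, the kinase that PAG holds, had 10.5 CPM in replicate 1 of MIT-BATF, 18.6 to 26.3 CPM in its other replicates and 17.8 to 26.8 CPM in MIT-Empty. Apart from replicate 1 these ranges were alike, and the log2 fold change was -0.10 (SE 0.21). Ptpn22, which binds Csk, was at 237 to 337 CPM and 163 to 250 CPM (log2 fold change 0.36, SE 0.16, adjusted p = 0.23). Ptpn6, which encodes the phosphatase SHP-1, held 17.5, 39.6, 54.2, 32.7 and 38.4 CPM in MIT-BATF replicates 1 to 5 and 61.0, 54.7, 69.0, 56.2 and 53.2 CPM in those of MIT-Empty. The highest MIT-BATF library, replicate 3, met the lowest MIT-Empty libraries, and replicate 1 was far below the rest. Ptpn6 had a log2 fold change of -0.68 (SE 0.22, adjusted p = 0.108 by edgeR), which was -0.50 (adjusted p = 0.0755) without MIT-BATF replicate 1 and -0.87 (adjusted p = 0.0413) without replicate 3. With shared reads counted once Ptpn6 was at -0.63 (adjusted p = 0.411) and passed in 0 of 10 such fits by edgeR, with an adjusted p of at least 0.119. SHP-1 is abundant in myeloid cells. Sums of macrophage and monocyte markers reached higher in MIT-Empty but overlapped between groups, and the part of such cells in this value was not tested.

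The ubiquitin ligases Cblb and Cbl, which mark receptor components for removal, had log2 fold changes of 0.18 (SE 0.16) and -0.04 (SE 0.17). Sla2, the relative of Sla, was at 44.9 to 64.3 CPM in MIT-BATF and 20.04 to 52.5 CPM in MIT-Empty, opposite in sign to Sla (log2 fold change 0.54, SE 0.21, adjusted p = 0.187, and 0.47 with shared reads counted once). The difference between Sla and Sla2 was not tested, and 21.5% of the 31-base stretches of Sla2 are shared with Rab5if on the opposite strand, so their counts cannot be fully told apart. Neither diacylglycerol kinase gene passed, with Dgka at 0.22 (SE 0.18) and Dgkz at -0.28 (SE 0.19). Dgka overlaps Pmel, a melanoma gene, on the opposite strand, with 1.55% of its 31-base stretches shared. Cd5 and Cd6, inhibitory receptors of the scavenger type, had log2 fold changes of -0.46 (SE 0.22, adjusted p = 0.287) and -0.28 (SE 0.18). Cd5 had 40.4 CPM in replicate 1 of MIT-BATF, 17.2 to 26.9 CPM in its other replicates and 25.4 to 42.2 CPM in MIT-Empty, and without replicate 1 its log2 fold change was -0.69 (adjusted p = 0.0404). With shared reads counted once Cd5 was at -0.47 (adjusted p = 0.571) and did not pass without that replicate.

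The adaptors Sh2d1a and Sh2d2a do not fall on either side. Sh2d1a, which encodes SAP, had a log2 fold change of -0.24 (SE 0.24), with 224 CPM in replicate 1 of MIT-BATF, 79.0 to 139.9 CPM in its other replicates and 130.0 to 203 CPM in MIT-Empty. Sh2d2a, which encodes the T cell specific adaptor TSAd that binds Lck, was at 214 to 291 CPM in MIT-BATF and 137 to 222 CPM in MIT-Empty (0.38, SE 0.16, adjusted p = 0.213). Before adjustment 13 of the 41 genes had a p under 0.05, where 18.1% of all genes tested did, and 9 did so with shared reads counted once, where 10.6% of all genes did.

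Transcript composition was examined for the 24 genes with a mean of at least 100 counts and a further transcript holding at least 10% of them, by an exact two-sided permutation test of the leading transcript's share over all assignments of the 10 libraries. None passed after Benjamini-Hochberg adjustment over these 24, and 1 had an unadjusted p under 0.05 (2 with shared reads counted once). The smallest p this exact permutation test can give is 0.00794, which for 1 gene alone becomes 0.19 after adjustment. No single gene could therefore pass, and the lack of calls does not show that the shares were unchanged. Ubash3a-201, the main coding transcript of Ubash3a, held 73.7 ± 6.66% of the gene's counts under MIT-BATF and 86.6 ± 3.59% under MIT-Empty (SD, n = 5 each), with an exact permutation p of 0.00794, the smallest this design gives, and an adjusted p of 0.19. The noncoding processed transcript Ubash3a-204 held 2.62% to 28.9% in MIT-BATF and 0 to 4.89% in MIT-Empty, overlapping between 2.62% and 4.89%. Zap70 counts fell mostly on the retained-intron transcript Zap70-204, at 68.2 ± 4.3% and 63.7 ± 5.09%, with the rest on the coding transcript. The lengths of these transcripts differ, so these are shares of counts and not of molecules. For Lck, Fyn and Rasgrp1 the split among near-identical coding transcripts jumped between libraries (Fyn-201 from 0 to 98.7% within MIT-BATF), so transcript levels of these genes are uncertain, while the split does not enter their summed gene counts. Splits of other genes jumped as well. A noncoding processed transcript of Nfatc2 held from 0 to 100% within MIT-Empty, and the leading coding transcript of Txk from 28.0% to 91.1% over all libraries. On average 83.3% of Dgkz counts fell on a nonsense-mediated decay transcript and 60.7% of Cd6 counts on a retained-intron transcript. Summed counts of these genes therefore do not compare coding transcripts alone.

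To see whether the wider pathway moved, 92 further genes of T cell receptor signaling in 7 groups were counted. Of these 4 were higher and 1 was lower, against 4.58% of all genes tested, and with shared reads counted once 1 was higher (Lime1). The median log2 fold change of the 92 was 0.10, and 0.13 with shared reads counted once. Lime1 encodes LIME, a transmembrane adaptor that, like PAG, binds Csk and Src family kinases. Replicates 1 to 5 held 158, 175, 176, 192 and 172 CPM of Lime1 in MIT-BATF and 84.1, 82.3, 118, 87.1 and 135 CPM in MIT-Empty. The groups did not overlap, and the log2 fold change was 0.78 (SE 0.16, adjusted p = 0.0118 by edgeR; 0.82, adjusted p = 0.0422, with shared reads counted once). On the deposited counts Rasa2, a brake on Ras (0.58, adjusted p = 0.0287), Pik3cd, a PI3 kinase catalytic subunit (0.58, adjusted p = 0.029), and Egr1, an early response gene (1.02, adjusted p = 0.0272), were also higher, and Rel, an NF-kB subunit, was lower (-0.55, adjusted p = 0.0335). Counting shared reads once, their adjusted p-values were 0.127, 0.204, 0.126 and 0.16. Themis, an adaptor that binds Grb2 and SHP-1, was at 0.53 on the log2 scale (adjusted p = 0.0593 by edgeR). Map4k1, a kinase that restrains SLP-76, was at -0.52 (adjusted p = 0.0744 by edgeR). DESeq2 called both on the deposited counts (adjusted p = 0.0134 and 0.0329) and neither with shared reads counted once (adjusted p = 0.115 and 0.135). Ptprc, which encodes CD45, was at 0.15. By group, 2 of 30 further proximal genes were higher (Lime1 and Rasa2), 1 of 6 PI3 kinase genes (Pik3cd) and 1 of 8 early response genes (Egr1) were higher, and 1 of 9 genes of the NF-kB branch was lower (Rel). By edgeR, 0 of 17 calcium and calcineurin genes, 0 of 12 Ras and MAP kinase genes and 0 of 10 actin remodelling genes passed. The unadjusted edgeR p was under 0.05 in 2, 2 and 0 of them, where 18.1% of all genes tested had such a p.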

How the data were processed

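RNA was measured in 10 SMART-Seq2 libraries sequenced as 37 bp paired reads. The authors aligned reads to mm10 in nf-core/rnaseq (v1.4.2) and quantified transcripts with Salmon (version not stated). Their deposited tables give estimated counts, which need not be whole, and TPM values for 112092 transcripts, of which 305 had no match in GENCODE vM21 and were left out (0.0617% to 0.089% of counts). Here the counts of each gene's transcripts were added and rounded. The protocol does not mark strand, so a gene and its antisense partner share reads.

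The test was edgeR's quasi-likelihood test (4.0.16, TMM normalization, filterByExpr, group as the only term) over 11781 genes, with Benjamini-Hochberg adjustment and a threshold of 0.05. Intervals are at 95%, and SDs are over 5 libraries. Levels were compared between genes as TPM, without a test. The edgeR test was tried on simulated counts of independent libraries, and the permutation test on small made-up cases. Neither trial held nested libraries, so they do not show how the tests behave with nesting. Alternatives were DESeq2 1.42.0, RLE size factors, other count filters, mitochondrial genes left out, a block by replicate number, leaving out each library, and the ways of treating nested libraries. A library was taken as nested where it exceeded another in fewer than 1% of genes having 5 or more counts, which held for 4 of 45 pairs (0.286%, 0.661%, 0.488% and 0.648% of genes). DESeq2, the block and leaving out each library were added later for counts with shared reads counted once. P-values on the deposited counts treat nested libraries as separate. With shared reads counted once the fit still enters 5 libraries a group, and whether the parted libraries come from separate samples is not known. If they do not, those p-values also count too many samples. All these p-values measure the spread between these samples only.

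The 41 genes, their roles, the 92 further pathway genes and the marker lists were chosen with earlier results of these data known. Named genes are the 41 members, every further pathway gene past the test, Ptprc, Themis and Map4k1 whatever their values, Batf and Thy1. The rule also names the most abundant gene of each marker list, given here for melanoma, for macrophages and monocytes and for dendritic cells. Genes that share sequence with a member, such as Rab5if and Pmel, were named after the values were seen. Some further genes under this rule are not reported here. R 4.3.3, Python 3.11.15, pandas 2.3.3, scipy 1.17.1 and matplotlib 3.10.9 were used.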

Additional observations from a re-analysis of the deposited data

Results flagged for a closer look

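Over the 82 sets of 5 libraries formed by the 41 genes and both groups, 1 value stood apart from its group by Dixon's criterion (a gap of more than 0.71 of the range), where chance gives about 1 in 20 sets. Lck was at 210.3 CPM in MIT-Empty replicate 3 and at 189 to 194 CPM in the other MIT-Empty libraries, a gap of 0.758 of the range. These values all lie within the range of Lck in MIT-BATF, 151 to 232 CPM.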

How the results depend on the processing

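Depth, nesting and the high mitochondrial share of MIT-BATF replicate 1 limit these results, and Nfatc2, at 22 to 373 counts per library, had the widest error of the 41 log2 fold changes (SE 0.32). The 2 positive regulators past the test became 1 with shared reads counted once, with no filter and with the replicate block, and 0 without the contained and without the containing libraries, which leave 3 libraries a group. The 3 negative regulators became 1 without the contained and 0 without the containing libraries. In the first of these fits Pag1 was the only member that passed, and in the other, by edgeR, no member passed. The 5 further pathway genes became 1, 0 and 0 under the same treatments of nesting and 11 with DESeq2, and the 540 genes over all became 140, 96 and 15, with 1173 by DESeq2 and 903 with no filter. With shared reads counted once DESeq2 called 3 further pathway genes and 388 genes over all. The cause of these shifts was not tested beyond the loss of libraries. Same-numbered libraries correlated between -0.046 and 0.222 in their deviations from the group means. These values cannot settle whether replicate numbers pair the samples, and the nested libraries bore the same numbers in both groups. The block lost Txk (edgeR adjusted p = 0.056) and no other member, with 5 further pathway genes and 474 genes over all.

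Leaving out 1 library gave 1 to 3 positive regulators, 1 to 8 further pathway genes and 287 (without MIT-Empty replicate 2) to 772 genes over all (without MIT-BATF replicate 1). With shared reads counted once the same fits gave 0 to 1 positive and 1 to 2 negative regulators, 0 to 2 further pathway genes and 69 to 148 genes over all.

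None of the 5 members past the test turned in direction. The log2 fold changes of 15 other members near 0 did so, with an adjusted p of at least 0.696. Without the contained libraries Cd3g was at -0.079, Lck at 0.068, Vav1 at 0.030, Rasgrp1 at 0.11 and Cbl at 0.016. Without the containing libraries Cd3e was at 0.013, Cd8a at -0.006, Lck at 0.0056, Plcg1 at -0.023, Prkcq at -0.20, Sh2d1a at 0.037 and Cbl at 0.018. With no filter Cd3e was at 0.018, Lck at 0.013, Zap70 at 0.041, Vav1 at 0.015 and Cbl at 0.011. Zap70 was at 0.0016 by DESeq2 and at 0.0004 without mitochondrial genes, and Cd3e at 0.012 with the replicate block. Without 1 library the ranges were -0.21 to 0.019 for Cd3d, -0.12 to 0.19 for Cd3e, -0.0061 to 0.28 for Cd3g, -0.0043 to 0.20 for Cd8a, -0.11 to 0.039 for Lck, -0.057 to 0.076 for Zap70, -0.050 to 0.11 for Plcg1, -0.17 to 0.076 for Vav1, -0.091 to 0.21 for Sos1, -0.15 to 0.055 for Rasgrp1, -0.11 to 0.16 for Prkcq, -0.027 to 0.13 for Nfatc3, -0.21 to 0.066 for Csk and -0.12 to 0.024 for Cbl.

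Differences in the leading transcript's share (MIT-BATF minus MIT-Empty, in percentage points) that turned were 2.65 for Cbl, -0.44 for Grb2, 0.51 for Nck1 and -0.10 for Sla2 with shared reads counted once. Without 1 library they ran from -4.69 to 6.03 for Cbl, -6.89 to 3.82 for Cd6, -6.60 to 9.05 for Grb2, -2.70 to 0.91 for Nck1, -0.32 to 3.59 for Ptpn22, -10.37 to 6.74 for Ptpn6 and -6.04 to 7.92 for Sla2.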
